A study of Mus musculus with 12 samples.

Results

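The 10 genes described here code for proteins of the splicing machinery that carry runs of alternating arginine and serine, for the kinases that act on such runs, or for close relatives. They are Nktr, Clk1, Clk2, Clk4, Srsf2, Srsf5, Srsf7, Rsrp1, Luc7l3 and Pnisr. They were listed as splicing kinases and SR-type genes, many with transcripts held in the nucleus. The list was chosen by the counts of Nktr, which were higher in the ACSA-2 libraries with AAV-A2A. Its members were matched by symbol to the mouse Ensembl identifiers of both count tables. All 10 were found and all 10 had enough counts to be tested in both fractions, out of 25442 genes that both tables hold (27866 in the astrocyte table and 30359 in the microglia table). Adult male C57Bl6/J mice, 2 months old, had received an AAV2/9 vector in the CA1 area of both hippocampi, and were studied 2 months later at an age of 4 months. The vector carried either the murine adenosine A2A receptor (AAV-A2A) or eGFP (AAV-GFP) under the GfaABC1D promoter, which is active in astrocytes, so that the controls share the surgery, the virus and the promoter. Whole hippocampi were dissociated, depleted of myelin and sorted on magnetic beads, first for ACSA-2 (astrocytes) and then, from the cells that ran through, for CD11b (microglia). RNA of each fraction was sequenced in 3 AAV-GFP and 3 AAV-A2A libraries per fraction, 12 in all.

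SR proteins bind exonic sequences through an RNA recognition motif and help the spliceosome to choose splice sites, while their arginine-serine (RS) tail makes contacts with other proteins. The tail is phosphorylated by the SRPK kinases in the cytoplasm and by the CDC2-like kinases (CLK) in the nucleus, which sets where an SR protein sits and how active it is. Many of these genes regulate their own transcripts through retained introns or through exons that send the RNA to nonsense-mediated decay, and transcripts of Clk1 and Clk4 with retained introns are known to wait in the nucleus. A count per gene, as used here, adds all of these transcripts together, so neither splicing nor the place of the RNA in the cell was measured.

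The coding sequence of each member shows the feature that unites them. In the longest coding transcript of GENCODE M21 (build GRCm38), the RNA stretch of 20 codons with the most arginine and serine codons is given for Nktr, Clk1 and Srsf2, the members that span the range from a long protein with many RS runs to a kinase with a short one and a classical SR protein. Arginine and serine codons are in capitals, and the sequences are written on the coding strand, 5′ to 3′.
Nktr, chr9:121748941-121749000, plus strand, codons 692 to 711: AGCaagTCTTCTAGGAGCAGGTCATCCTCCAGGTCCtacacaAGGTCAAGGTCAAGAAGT
Clk1, chr1:58421113-58421172, minus strand, codons 100 to 119: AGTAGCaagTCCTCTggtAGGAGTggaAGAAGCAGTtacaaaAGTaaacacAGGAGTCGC
Srsf2, chr11:116852268-116852327, minus strand, codons 123 to 142: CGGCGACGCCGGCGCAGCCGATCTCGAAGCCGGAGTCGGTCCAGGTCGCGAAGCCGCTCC
All 20 codons of the Srsf2 stretch code for arginine or serine, against 17 of 20 in Nktr and 13 of 20 in Clk1. Over the whole coding sequence, neighbouring pairs of an arginine and a serine codon numbered 23.5 per 100 codons in Srsf2, 23.1 in Srsf7, 18.1 in both Srsf5 and Rsrp1, 7.98 in Nktr, 7.74 in Luc7l3, 6.51 in Pnisr, 4.2 in Clk2, 3.11 in Clk1 and 1.87 in Clk4. The median of 21506 coding genes was 0.728, and the lowest of the members, Clk4, lay at the 93.5th percentile. The members were listed as splicing kinases and SR-type genes, so these values describe how the list was made.

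The 3 kinases also share the signature after which the LAMMER kinases are named, a motif of the kinase domain that they have in common with relatives in plants and yeast. Its 18 coding bases are shown in capitals to let the copies be compared.
Clk1, chr1:58412988-58413005, minus strand: TTAGCAATGATGGAAAGG
Clk2, chr3:89175413-89175430, plus strand: CTAGCCATGATGGAAAGG
Clk4, chr11:51280379-51280396, plus strand: CTGGCAATGATGGAGCGG
Clk1 and Clk2 differed at 2 of the 18 bases, and Clk4 differed from each of them at 4.

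The annotation of the members was rich in alternative transcripts. The list was made of SR-type genes and splicing kinases, many with transcripts held in the nucleus. The shares below describe that choice and are not a result of these libraries. A transcript labelled as retaining an intron is annotated for 9 of the 10 members, all but Pnisr, against 55.5% of the 15035 coding genes tested in the fraction comparison below. A transcript labelled for nonsense-mediated decay is annotated for 9 members, all but Rsrp1, against 26.8% of those genes. The members had a median of 11.5 annotated transcripts, against 5 for all coding genes tested, and the median GC content of their longest transcript was 41.6%, against 49.96%. Nktr (chr9:121719169-121756843, plus strand) has 18 annotated transcripts, 8 of them with a retained intron, and a GC content of 37.0%. The exons of 3 members overlap another gene: Nktr shares 2182 of its 21283 exonic bases with E530011L22Rik on the opposite strand, Srsf2 shares 748 of 2958 with Mettl23 and Mfsd11 on the opposite strand, and Clk4 shares 59 of 5797 with Gm25082. Reads on shared bases were counted for neither gene, on opposite strands only if the counting ignored strand. That setting is not given in the sources used here, so the levels of these 3 genes are less certain.

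The libraries held 33937067 to 49217553 counts in the ACSA-2 fraction and 36098295 to 53206974 in the CD11b fraction. Adora2a, the gene the vector carries, stood at 23.0 to 25.1 CPM (counts relative to the scaled total of a library) in ACSA-2 libraries with AAV-GFP and 656 to 945 with AAV-A2A, and at 3.96 to 8.07 and 16.3 to 43.3 CPM in the CD11b libraries. The 8 astrocyte markers summed to 22141 to 36317 CPM in the ACSA-2 libraries and 272 to 489.7 CPM in the CD11b libraries, and the 8 microglia markers to 253 to 464 and 7470 to 56104 CPM; no marker of either list was at 0 in its own fraction. The CD11b libraries were far from alike: the 5 choroid plexus markers held 7.54% of the counts in GFP-2328, 6.12% in GFP-2329 and 3.13% in A2A-2347, but at most 0.00894% in the other 3. In the ACSA-2 fraction, library A2A-310 stood apart by its nuclear long noncoding RNAs (Malat1, Neat1 and others), which summed to 6232 CPM against 652 to 2325 in the other 5, and by its mitochondrially encoded mRNAs, at 8289 CPM against 1990 to 3504.

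The level of the members was compared per kilobase of exon, as CPM divided by the length of the union of a gene's exons, on one scale for both fractions. Rsrp1, a small protein named for its arginine-serine-rich sequence, had by far the highest level in both, with a mean of 306 ± 116 CPM per kilobase in the ACSA-2 and 398 ± 181 in the CD11b fraction (SD, n = 6). Nktr, a large cyclophilin-type prolyl isomerase with RS runs, had the lowest, at 0.751 ± 0.530 and 2.46 ± 0.53. Within the ACSA-2 fraction the 3 SR proteins followed Rsrp1, with Srsf7 at 54.9 ± 15.03, Srsf2 at 50.4 ± 6.9 and Srsf5 at 40.6 ± 5.9 CPM per kilobase, and their libraries overlapped. Below them came Luc7l3, a protein of the U1 snRNP, at 11.1 ± 4.5, Pnisr, a serine- and arginine-rich partner of pinin, at 9.80 ± 4.08, and the kinases Clk4 at 7.62 ± 0.66, Clk1 at 6.32 ± 2.34 and Clk2 at 3.72 ± 0.93, each overlapping its neighbour in the order. In this order 3 gaps were free of overlap between libraries, those between Rsrp1 and Srsf7, between Srsf5 and Luc7l3, and between Clk2 and Nktr. In the CD11b fraction the order of the SR proteins was turned, with Srsf5 at 107 ± 18, Srsf2 at 85.3 ± 19.2 and Srsf7 at 70.1 ± 17.6, again with overlapping libraries. Clk1 stood at 33.6 ± 7.3 CPM per kilobase, clear of Clk4 at 14.1 ± 2.1 below it and of Srsf7 above it, and Pnisr (9.68 ± 1.85), Clk2 (9.61 ± 3.87) and Luc7l3 (5.88 ± 2.19) came next, with libraries that overlapped from each to the next.

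**Figure D1:**
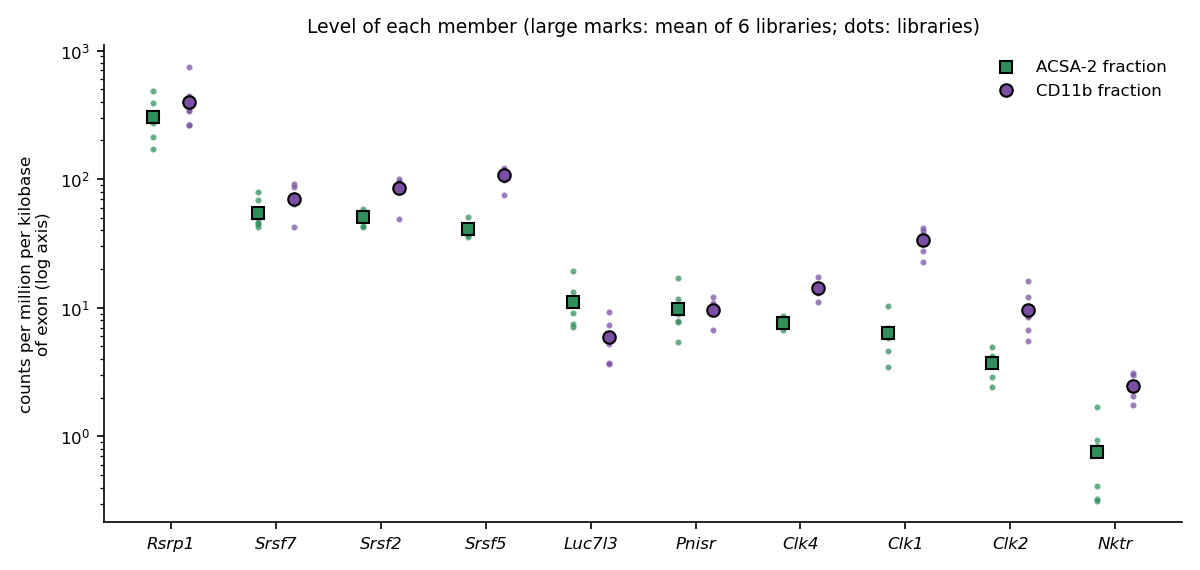
Level of each member in CPM per kilobase of exon, on a log axis, in the ACSA-2 fraction (squares) and the CD11b fraction (circles). Large marks are means of 6 libraries and dots are single libraries; Rsrp1 is highest and Nktr lowest in both fractions, and Clk1 shows the widest gap between the fractions.

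The 2 fractions were then compared, with both vectors weighted equally. The ACSA-2 libraries with AAV-A2A, whose Nktr counts chose the list, are among those averaged, so the Nktr value below also holds them. Most of the list was lower in the ACSA-2 than in the CD11b fraction. Of the 10 members, 6 lay past the thresholds as lower (adjusted p under 0.05 and an absolute log2 fold change over 0.32). These were Clk1, Nktr, Srsf5, Clk2, Clk4 and Srsf2. For Nktr this is a description and not a test, since its counts chose the list. Luc7l3 passed as higher, and Rsrp1, Srsf7 and Pnisr did not pass. Among the 18602 genes tested, 54.1% passed in either direction, 29.4% as lower and 24.6% as higher in the ACSA-2 fraction. The libraries of the fractions did not overlap for 5 members, all lower in the ACSA-2 fraction, beside 15.8% of all genes tested. The median log2 fold change of the members was -0.82, that of all genes tested -0.13.

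All 3 kinases passed as lower in the ACSA-2 fraction, and Clk1 had the widest difference of the 10 members. Clk1 ranged from 28.4 to 83.5 CPM in the 6 ACSA-2 libraries, with a median of 50.8, and from 184 to 338 CPM in the 6 CD11b libraries, with a median of 286. No ACSA-2 library came near the lowest CD11b library, and the log2 fold change was -2.42 (SE 0.27, 95% interval -3.02 to -1.83, adjusted p = 2.61e-05). Clk2 ranged from 12.8 to 26.3 CPM (median 20.7) against 29.5 to 85.0 CPM (median 45.5), again without overlap, with a log2 fold change of -1.33 (SE 0.22, adjusted p = 3.98e-04). Clk4 differed less, at 39.1 to 49.8 CPM (median 44.0) against 63.8 to 101 CPM (median 82.5), with a log2 fold change of -0.89 (SE 0.16, adjusted p = 6.03e-04). Its libraries did not overlap either, but the call was lost when each library's trend on GC content and gene length was removed (log2 fold change -0.31, adjusted p = 0.178).

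Nktr was second to Clk1, with a log2 fold change of -1.93 (SE 0.22). No test of this value is given, since it holds the ACSA-2 libraries whose Nktr counts chose the list. It ranged from 6.73 to 35.9 CPM in the ACSA-2 libraries, with a median of 13.2, and from 37.1 to 66.5 CPM in the CD11b libraries, with a median of 51.5. The highest ACSA-2 library, A2A-310, lay just under the lowest CD11b library. The gap had another size with each vector: it was -3.04 on the log2 scale among AAV-GFP libraries alone and -0.83 among AAV-A2A libraries alone. Both values hold ACSA-2 libraries of the comparison that chose the list, so no test of either is given. The step between them holds the difference that chose the list, so it was not tested.

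Among the SR proteins, Srsf5 ranged from 141 to 203 CPM (median 153) in the ACSA-2 and from 299 to 484 CPM (median 463) in the CD11b fraction, without overlap, with a log2 fold change of -1.41 (SE 0.18, adjusted p = 6.82e-05). Srsf2 ranged from 126 to 173 CPM (median 151) against 144 to 295 CPM (median 279). Only A2A-2347 among its CD11b libraries fell within the ACSA-2 range, and the log2 fold change was -0.75 (SE 0.19, adjusted p = 0.00653). With AAV-A2A libraries alone Srsf2 was no longer called (-0.51, adjusted p = 0.146). For Srsf7, 152 to 279.5 CPM (median 168) stood against 151 to 324 CPM (median 241), a log2 fold change of -0.35 with a 95% interval of -0.87 to 0.18 (adjusted p = 0.240).

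The SR-related members did not share a direction. Luc7l3 was higher in the ACSA-2 fraction, at 51.4 to 139 CPM (median 72.0) against 26.5 to 67.7 CPM (median 41.1), with overlapping libraries and a log2 fold change of 0.87 (SE 0.25, adjusted p = 0.0109). It was 1.54 among AAV-A2A libraries alone (adjusted p = 0.00411) but 0.20 among AAV-GFP libraries alone (adjusted p = 0.70), where it was not called. Rsrp1 (575 to 1630.5 CPM, median 966, against 879 to 2485 CPM, median 1137) had a log2 fold change of -0.41 with an interval of -1.07 to 0.25 (adjusted p = 0.269). Pnisr stood at 55.0 to 173 CPM (median 85.7) and 67.9 to 124 CPM (median 96.8), with a log2 fold change of -0.02 and an interval of -0.52 to 0.47 (adjusted p = 0.937).

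**Figure D2:**
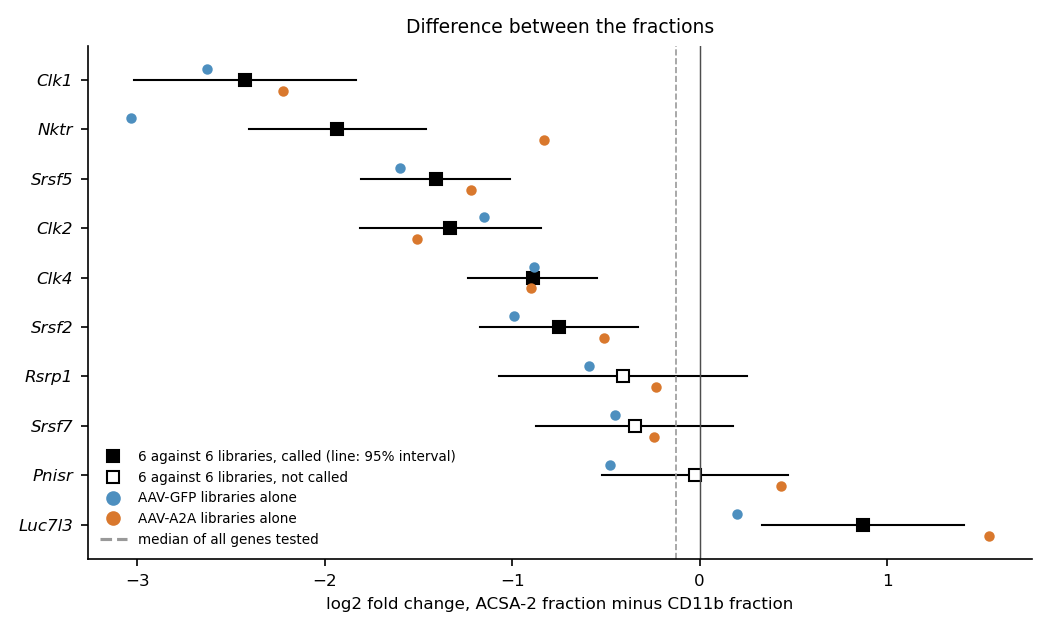
Log2 fold change of each member between the ACSA-2 and CD11b fractions, with Nktr, whose counts chose the list, shown as a description. Squares are the comparison of 6 against 6 libraries, filled where called, with 95% intervals; coloured points give the same difference among AAV-GFP and AAV-A2A libraries alone, which lie farthest apart for Nktr (-3.04 and -0.83) and Luc7l3 (0.20 and 1.54).

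Other genes of the splicing machinery were counted in the same comparison, beside 29.4% of all genes tested called lower and 24.6% called higher. Of 12 further kinases that act on SR proteins or resemble those that do, 8 were called lower in the ACSA-2 fraction and none higher, by edgeR, with a median log2 fold change of -0.89. Srpk3, an SR protein kinase best known from muscle, had the largest difference, at 3.55 ± 2.81 against 42.1 ± 20.9 CPM (SD, n = 6 and 6), a log2 fold change of -3.61 (SE 0.55, adjusted p = 2.33e-04), followed by Dyrk2 (-1.99) and Dyrk1a (-1.52). Of 10 further SR proteins, 3 were called, all lower: Srsf6 (-1.32), Srsf3 (-0.54) and Srsf11 (-0.52). Of 29 tested SR-related proteins, 17 were called lower and 1 higher, with a median of -0.76 and with Scaf8 (-1.90), Cherp (-1.78) and Thrap3 (-1.41) farthest from 0. Of 13 other transcripts known for retained introns, 10 were called lower and 1 higher, with a median of -1.26; Ccnl1, a cyclin that binds splicing-linked CDK11, stood at 34.4 ± 8.4 against 192 ± 48 CPM, a log2 fold change of -2.49 (SE 0.23, adjusted p = 7.28e-06).

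The immediate early genes, which cells switch on within minutes of a stimulus, moved in the same direction. All 13 were called lower in the ACSA-2 fraction, with a median log2 fold change of -4.70, and they summed to 996 to 1466 CPM in the 6 ACSA-2 libraries against 15621 to 30633 CPM in the 6 CD11b libraries. The CD11b selection was made afterwards, on the cells that had run through the ACSA-2 columns. The part of immediate early gene induction in the members' difference was not tested, and fraction and count table cannot be told apart. In these bulk samples, too, fewer cells of a type and less RNA per cell cannot be told apart. The 3 CD11b libraries rich in choroid plexus markers were also left out, an alternative chosen after seeing the data that leaves 1 AAV-GFP library in that fraction. The same 7 members kept their directions. Their log2 fold changes were -2.57 for Clk1, -1.91 for Nktr, -1.61 for Clk2, -1.58 for Srsf5, -1.02 for Clk4, -0.88 for Srsf2 and 0.96 for Luc7l3.

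The comparison of AAV-A2A with AAV-GFP in the ACSA-2 fraction is the one that chose the list, so its values are given as a description, with no test of the members. Nktr stood at 6.76 CPM in GFP-303, 8.60 in GFP-306 and 6.60 in GFP-307, and at 19.7 CPM in A2A-309, 35.9 in A2A-310 and 18.1 in A2A-313. Every AAV-A2A library was above every AAV-GFP library, by a log2 fold change of 1.75 (SE 0.34), and A2A-310 was the highest. Without A2A-310 the log2 fold change was 1.37. Of the members, 1 (Nktr) lay past the thresholds in this comparison, where 3.36% of the 16451 genes tested were called, 0.176% as higher with AAV-A2A. Nothing is read from that count, since the comparison chose the list, and Nktr did not lie past them without GFP-303, GFP-306, GFP-307 or A2A-310.

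Luc7l3 had the next largest value, at 65.3, 50.9 and 53.1 CPM with AAV-GFP and 94.8, 139 and 78.8 CPM with AAV-A2A, without overlap (log2 fold change 0.89, SE 0.24). Srsf5 was the third gene without overlap, though its difference was small, at 143, 139.7 and 149.6 CPM against 174, 203 and 157 CPM (0.31, SE 0.17). These make 3 of 10 members without overlap and higher with AAV-A2A, beside 8.61% of all genes tested. All 10 log2 fold changes were above 0, beside 51.6% of all genes tested, with a median of 0.46 beside 0.02. Nothing is read from these counts either, since this comparison chose the list and Nktr is among the genes counted.

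The remaining members overlapped between the vectors. Rsrp1 stood at 1001, 569.6 and 704 CPM against 1615, 1300.0 and 929 CPM (0.76, SE 0.26), and Pnisr at 89.7, 54.5 and 78.4 CPM against 119, 173 and 81.1 CPM (0.74, SE 0.29). Among the kinases, Clk2 stood at 12.6, 15.2 and 21.3 CPM against 22.1, 26.3 and 20.2 CPM (0.48, SE 0.28), and Clk1 at 46.1, 56.3 and 27.8 CPM against 54.1, 83.6 and 38.6 CPM (0.44, SE 0.33). For each of Pnisr, Clk1 and Clk2 the highest of the 6 libraries was A2A-310, while 1 AAV-A2A library lay within the AAV-GFP range for Pnisr and Clk2, and 2 did for Clk1. Without A2A-310 the log2 fold change was 0.43 for Pnisr, 0.37 for Clk2 and 0.09 for Clk1. Without GFP-307 it was 0.19 for Clk1. Clk4 (38.3 to 48.8 CPM against 43.2 to 47.5 CPM, log2 fold change 0.08), Srsf2 (127 to 159.9 CPM against 126 to 171 CPM, 0.14) and Srsf7 (150.1 to 274 CPM against 162 to 244 CPM, 0.01) lay closest to 0. Without single libraries the value of Clk4 ranged from -0.0018 to 0.17 and that of Srsf7 from -0.19 to 0.33.

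The nuclear long noncoding RNAs lay higher on the same side: their sum was 1262, 1055 and 652 CPM in the AAV-GFP libraries and 2325, 6232 and 1585 CPM in the AAV-A2A libraries, so that A2A-310 was highest for them as for Nktr, Luc7l3 and Pnisr. The summed markers of oligodendrocyte precursors and, in 2 of 3 libraries, of endothelial cells lay lower with AAV-A2A, but not every marker did. The 3 markers of oligodendrocyte precursors, the cells that carry NG2 (Cspg4), summed to 190.05 to 296 CPM in the AAV-GFP and 50.4 to 75.4 CPM in the AAV-A2A libraries. The 2 of them that were tested had log2 fold changes of -2.17 and -0.39, and Cspg4 was called lower. Gpr17 was at 0 in all 3 AAV-GFP libraries and, among those with AAV-A2A, in A2A-310 alone. The 5 endothelial markers summed to 428 to 479 and 255 to 464 CPM, with Flt1 called lower and none at 0. Of these 5, 3 had log2 fold changes below 0 (lowest -2.62) and 2 above 0 (highest 0.05). The part of these in the members' values was not tested. In the other lists, too, many values were above 0: 21 of 29 SR-related proteins (median log2 fold change 0.25), 11 of 13 other transcripts known for retained introns (0.37), 10 of 13 immediate early genes (0.31) and 7 of 8 mitochondrially encoded mRNAs (0.48). The sum of the mitochondrially encoded mRNAs lay above the AAV-GFP range in A2A-310 alone. That of the immediate early genes lay above this range in A2A-309 and below it in A2A-310 and A2A-313. The further kinases (5 of 12, median -0.25), the further SR proteins (5 of 10, 0.04) and the hnRNP proteins (8 of 24, -0.07) had at most as many above as below 0, and the cyclophilins (9 of 15, 0.10) and the core spliceosome (17 of 28, 0.09) had medians near 0. Without overlap, 7 SR-related proteins were higher and 1 lower, and 8.61% of all genes tested were higher. These counts were 2 and 4 for the further kinases and 3 and 2 for the retained-intron transcripts. They were 4 and 4 for the core spliceosome, 3 and 1 for the cyclophilins, and 0 and 2 for both the hnRNP proteins and the immediate early genes. The lower counts have no share of all genes beside them, so nothing is read from them. Of the 553 genes called in this comparison, 524 were lower with AAV-A2A. Among 12 further kinases, Cdk13 was the 1 called and was lower, at 36.4 ± 10.7 with AAV-A2A and 94.9 ± 35.2 CPM with AAV-GFP (SD, n = 3 each; log2 fold change -1.38). None of 10 further SR proteins, 29 SR-related proteins or 15 cyclophilins, the family of prolyl isomerases to which Nktr belongs, was called in this comparison by edgeR. Of 13 other transcripts known for retained introns, the 1 called was Ogt, the enzyme that attaches O-GlcNAc to proteins, which was lower with AAV-A2A, at 237 ± 50 against 920.4 ± 38.6 CPM (log2 fold change -1.96). Hnrnpl (-1.71) and Hnrnpul1 (-1.61), RNA-binding proteins of the hnRNP family, were the 2 of 24 called there, both lower, and Snrnp200 (-1.40), a helicase of the U5 snRNP, was the 1 of 28 core spliceosome genes. Of the 13 immediate early genes, Egr1 was called and lower (-1.61).

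**Figure D3:**
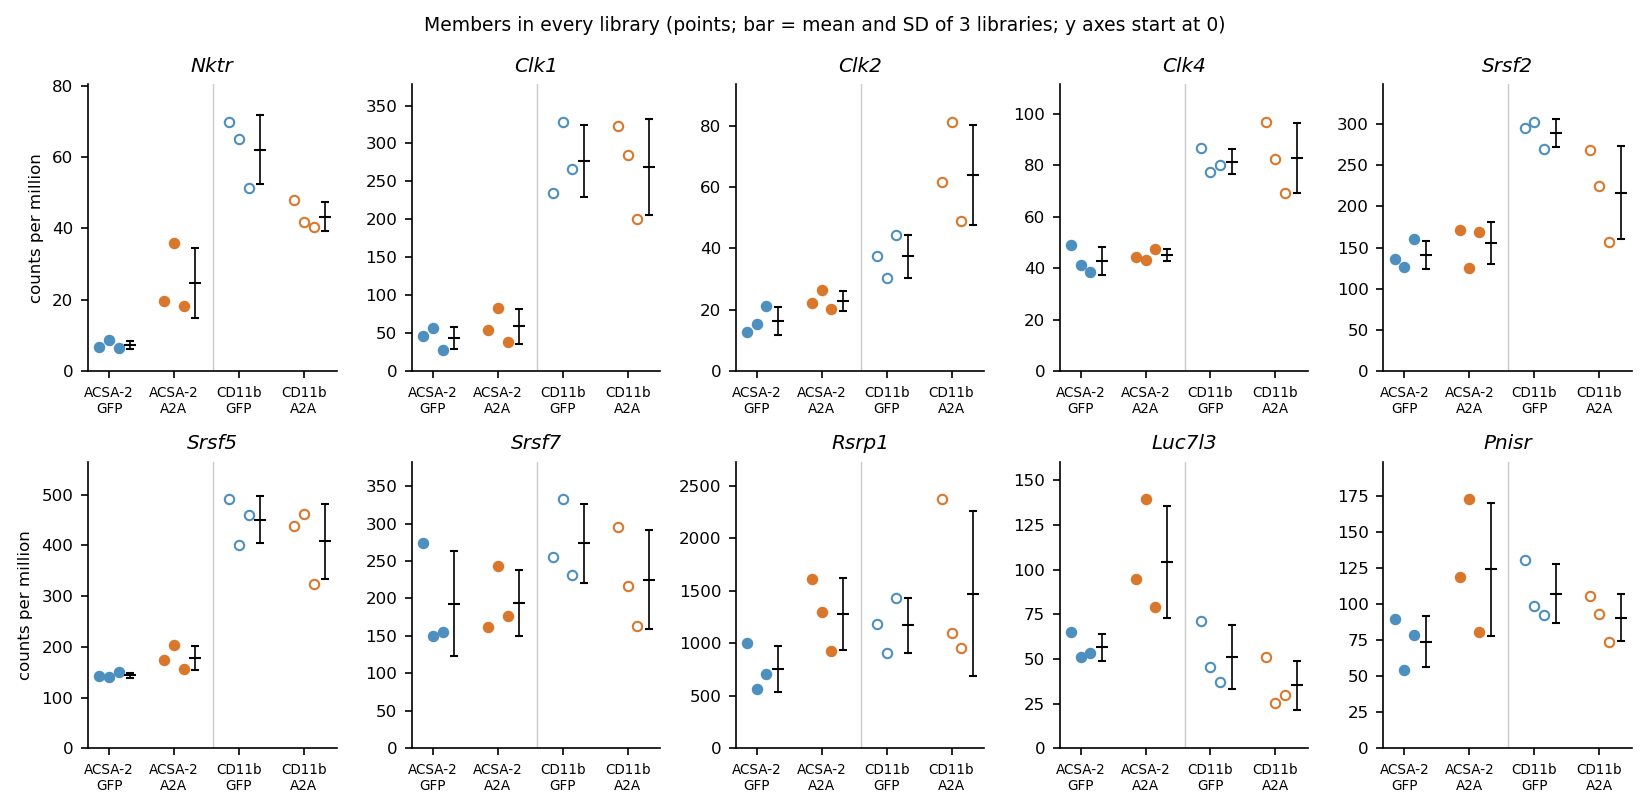
CPM of each member in every library, with the mean and SD of the 3 libraries of a group, scaled within each fraction. Filled points are ACSA-2 and open points CD11b libraries; for Nktr the vector groups are apart in both fractions, in opposite directions, 6.60 to 8.60 against 18.1 to 35.9 CPM in ACSA-2 and 51.5 to 69.9 against 40.3 to 47.9 CPM in CD11b libraries.

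The CD11b fraction gives the same comparison in libraries that did not choose the list. The promoter of the vector is active in astrocytes, so these cells were not the ones meant to carry the transgene. No member passed the test, and neither did any other of the 16949 genes tested by edgeR (0% called), while 2704 genes, or 16%, had an unadjusted p under 0.05, among the members only Clk2. DESeq2 called 455 genes in these libraries, none of them a member. Of the members, 3 had log2 fold changes above 0 and 7 below, with a median of -0.19 beside -0.05 for all genes tested.

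Nktr lay lower with AAV-A2A here, at 69.9, 65.1 and 51.5 CPM in GFP-2328, GFP-2329 and GFP-2331 and 47.9, 41.7 and 40.3 CPM in A2A-2343, A2A-2344 and A2A-2347. The vectors did not overlap, but the gap between the nearest libraries was small, and the log2 fold change of -0.52 (SE 0.25, 95% interval -1.12 to 0.08) did not pass (adjusted p = 0.359). Clk2 lay higher, at 37.4, 30.2 and 44.5 CPM against 61.7, 81.2 and 49.1 CPM, also without overlap, with a log2 fold change of 0.78 (SE 0.30, interval 0.06 to 1.5, adjusted p = 0.297). Srsf2 lay lower without overlap, at 295, 303 and 270.4 CPM against 268, 225 and 157 CPM (-0.42, SE 0.34, adjusted p = 0.565). In all, 1 member was higher and 2 were lower without overlap, beside 12.6% and 10.9% of all genes tested.

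For the other members the AAV-GFP and AAV-A2A libraries overlapped. Luc7l3 stood at 71.1, 45.4 and 36.8 CPM against 51.1, 25.3 and 29.6 CPM (log2 fold change -0.53, SE 0.40, adjusted p = 0.531). Rsrp1 stood at 1185, 905 and 1430.4 CPM against 2375, 1097 and 954 CPM (0.33, SE 0.52, adjusted p = 0.776), where A2A-2343 alone set the sign: without it the value was -0.19. Clk1 and Clk4 lay within 0.04 of 0 on the log2 scale (-0.04 and 0.02), with intervals of -0.86 to 0.78 and -0.58 to 0.63. The values of Srsf5 (-0.14), Pnisr (-0.24) and Srsf7 (-0.28) were smaller than their standard errors of 0.34, 0.29 and 0.36. The intervals of all members but Clk2 included 0, and they were wide enough to hold a change of 1.5-fold for each.

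The CD11b libraries also differed in microglia markers and in RNA of other cells, and these values stand beside the result. The 8 microglia markers summed to 7470, 14867 and 51466 CPM in GFP-2328, GFP-2329 and GFP-2331. In A2A-2343, A2A-2344 and A2A-2347 they summed to 56104, 46277 and 21947 CPM. Of the 8, 7 had log2 fold changes above 0, with a median of 0.48. Clk2 was lower in the choroid plexus-rich libraries than in the others of the same vector. Both choroid plexus-rich AAV-GFP libraries, GFP-2328 and GFP-2329, were also the highest for Nktr, whereas the choroid plexus-rich AAV-A2A library, A2A-2347, was the lowest. Mitochondrially encoded mRNAs summed to 2287 to 15090 CPM with AAV-GFP and 1794 to 2045 CPM with AAV-A2A, and the 8 neuronal markers to 25.2 to 114 and 5.41 to 11.3 CPM, with Nktr higher on the same side. On that side too were the 6 nuclear long noncoding RNAs (889 to 1493 against 314 to 463 CPM) and the markers of erythrocytes (988 to 6137 against 61.6 to 242 CPM), endothelial cells (531 to 1387 against 291 to 333 CPM) and ependymal cells (136 to 267 against 30.01 to 58.1 CPM). The part of these in the result was not tested. Without the 3 choroid plexus-rich libraries, which leaves 1 AAV-GFP library that is then assumed to vary like the others, the log2 fold change of Nktr was -0.20 and that of Clk2 0.69, both with an adjusted p of 1.00.

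**Figure D4:**
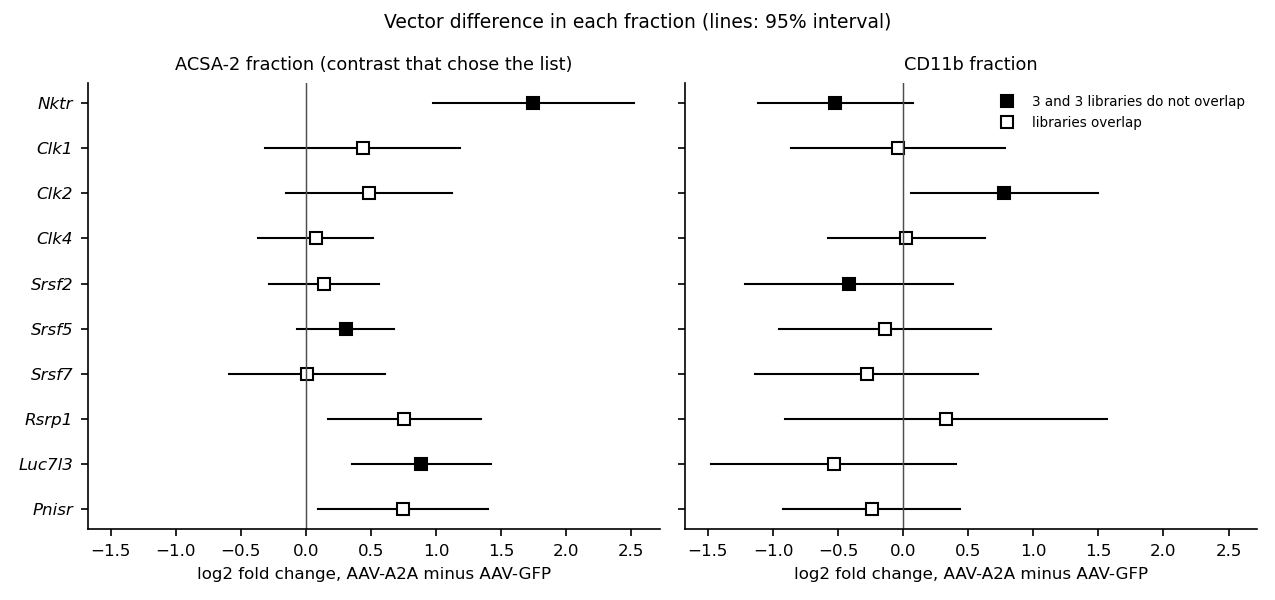
Log2 fold change of each member between AAV-A2A and AAV-GFP, with 95% intervals, in the ACSA-2 fraction (left, the comparison that chose the list) and the CD11b fraction (right). Filled squares mark members whose 3 and 3 libraries do not overlap; Nktr is at 1.75 on the left and -0.52 on the right, and Clk2 at 0.48 and 0.78.

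The promoters of Nktr and Clk2 are shown because Nktr chose the list and Clk2 was the 1 member higher without overlap with AAV-A2A in the CD11b fraction. The 250 bases before the start of transcription are from the RefSeq promoter table (GRCm38.p6), which held 8 of the 10 members, and are written on the strand of the gene. Capitals mark the motifs CCAAT, the box bound by NF-Y, and TGACG, the core of a cyclic AMP response element, on either strand.
Nktr, chr9:121718931-121719180, plus strand: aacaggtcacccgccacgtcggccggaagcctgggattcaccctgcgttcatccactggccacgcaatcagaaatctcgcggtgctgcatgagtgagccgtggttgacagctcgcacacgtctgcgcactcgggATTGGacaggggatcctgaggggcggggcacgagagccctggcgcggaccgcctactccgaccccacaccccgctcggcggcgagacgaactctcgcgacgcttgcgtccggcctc
Clk2, chr3:89164545-89164794, plus strand: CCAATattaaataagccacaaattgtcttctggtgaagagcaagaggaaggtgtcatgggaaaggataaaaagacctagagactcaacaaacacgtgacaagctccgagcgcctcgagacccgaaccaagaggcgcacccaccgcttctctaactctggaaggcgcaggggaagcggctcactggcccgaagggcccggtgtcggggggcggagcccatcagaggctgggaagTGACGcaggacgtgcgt
The A2A receptor raises cyclic AMP, which acts on such elements through CREB. The full element TGACGTCA was in 1 of the 8 member windows, that of Clk4, beside 1.55% of all 32851 promoter windows of this length. The core TGACG, which the full element contains, was in those of Clk2, Clk4, Rsrp1 and Srsf5 (17.8% of all windows) and CCAAT in those of Clk2, Nktr, Rsrp1 and Srsf2 (33.8% of all windows). The letters GGGCGG, to which Sp1 binds, were in all 8 windows (32.7% of all windows). A match of letters is a description of the window and does not show binding.

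Within the 4 groups the members varied together in part. Each library's deviation from the mean of its group (log2 CPM) was correlated between genes over the 12 libraries, which removes the vector and the fraction. Of the 45 pairs of members, 21 had a Pearson r over 0.5 and 2 had an r under 0, with a median of 0.48. Over all 45912153 pairs among the genes with a mean of at least 5 CPM in both fractions, 18.1% had an r over 0.5 and 49.6% an r under 0. The points share their library, and with it its depth, its cell content and its base composition, and with groups of 3 the deviations of a group sum to 0. With Nktr, Clk1 had an r of 0.76, Luc7l3 of 0.67, Pnisr of 0.60, Srsf5 of 0.51, Srsf7 of 0.46, Clk2 of 0.23, Rsrp1 of 0.17, Clk4 of 0.13 and Srsf2 of -0.13. For Srsf2 and Clk4 the value had another sign in each fraction, with an r of -0.90 and -0.32 in the 6 ACSA-2 and 0.78 and 0.71 in the 6 CD11b libraries. Without single libraries Srsf2 ranged from -0.69 to 0.43 and Clk4 from -0.18 to 0.42, lowest without A2A-2347 and highest without A2A-310. Among 9582 genes with a mean of at least 5 CPM in both fractions, the median r with Nktr was -0.02, 458 (4.78%) had an r over 0.5 and 83 had an r over 0.7. The 5 most like Nktr were Mllt3, a reader of acylated histones in transcription elongation (0.95), Gstt2, a glutathione transferase (0.93), Prpf39, a U1 snRNP-linked splicing factor (0.93), Atrx, a chromatin remodeller (0.88), and Cep44, a centrosomal protein (0.88). These 5 were picked as the largest of the 9582 values, so their height is not evidence by itself. Without library A2A-310 their r with Nktr was 0.83 for Mllt3, 0.84 for Gstt2, 0.83 for Prpf39, 0.71 for Atrx and 0.78 for Cep44. Among the members it was then 0.24 for Pnisr and 0.37 for Srsf5, and only Clk1 (0.66) and Luc7l3 (0.57) kept an r over 0.5. Without A2A-313 the members with an r over 0.5 were also 2.

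**Figure D5:**
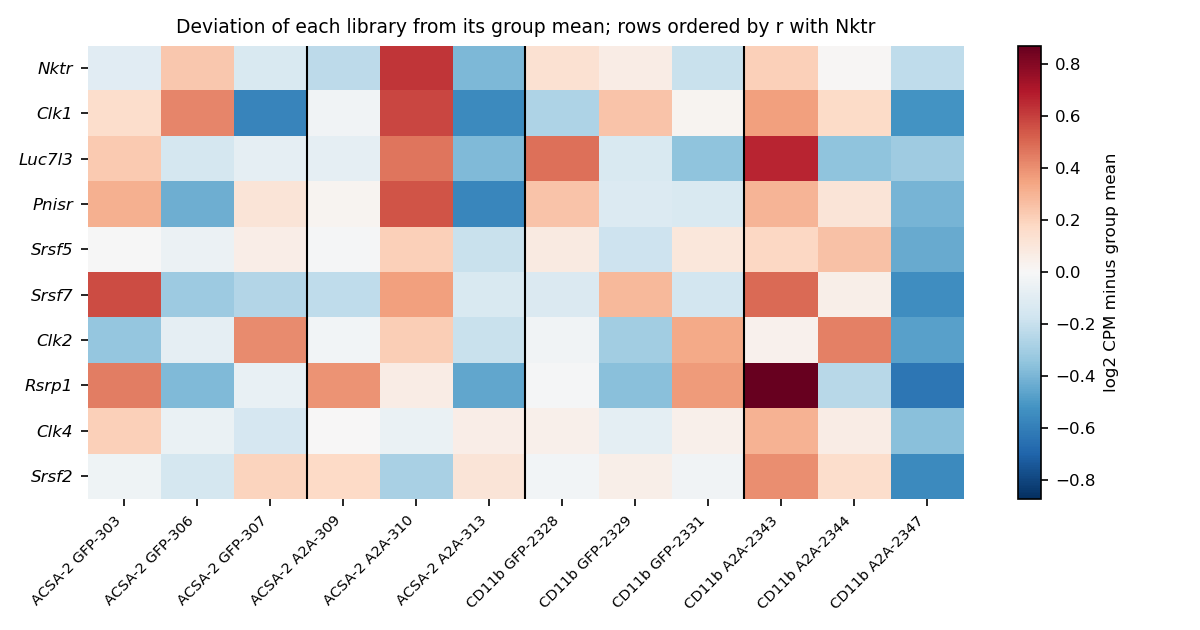
Deviation of each library from the mean of its group, in log2 CPM, for the 10 members, with rows ordered by their correlation with Nktr. Black lines part the 4 groups; A2A-310 is high for Nktr, Clk1, Luc7l3 and Pnisr and low for Srsf2, and A2A-2347 is low for all 10 members.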

How the data were processed

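RNA had been amplified with SMART-Seq v4, which does not mark strand, made into libraries with Nextera XT and sequenced as single reads of 50 bases without molecular identifiers. The authors trimmed the reads with cutadapt 1.10, aligned them to mm10 (GRCm38) with STAR 2.5.3 and assigned reads with a unique position to genes with htseq-count 0.6.1p1 (union mode, which leaves out ambiguous reads, Ensembl annotation). They deposited the raw counts per gene. These counts were analysed as deposited, with groups taken from the sample labels. The labels do not tie the animals of the 2 fractions together, and p-values measure the spread between these libraries, which differed from each other by more than sampling noise in all 12 pairs of replicates. CPM and TMM scaling, filterByExpr and the robust quasi-likelihood test came from edgeR 4.0.16 in R 4.3.3, with Benjamini-Hochberg adjustment over all genes tested. Vector comparisons used the 6 libraries of a fraction and the fraction comparison all 12, with one mean per group. A gene was called at an adjusted p under 0.05 and an absolute log2 fold change over 0.32, the thresholds of the study's methods. Alternatives were DESeq2 1.42.0, limma-voom with limma 3.58.1, RLE or upper quartile scaling, other count filters, removal of the trend on GC content and length, other sets of libraries and each library left out in turn. Positions, exon lengths, transcript types and coding sequences are from GENCODE M21, also on GRCm38. The log2 CPM values behind the correlations used a prior count of 2. Members and gene lists were chosen with earlier results of these data known. Besides the members, at most 3 called genes per list and comparison were named, those with the largest change and a mean of at least 5 CPM, and the 5 genes most like Nktr.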

Additional observations from a re-analysis of the deposited data

Results flagged for a closer look

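The Nktr libraries parted by vector in opposite directions in the 2 fractions: all 3 AAV-A2A libraries were above all 3 AAV-GFP libraries in the ACSA-2 fraction (log2 fold change 1.75) and below all 3 in the CD11b fraction (log2 fold change -0.52, 95% interval -1.12 to 0.08, adjusted p = 0.359 by edgeR, not called). The difference between the fractions was not tested, because the first of these values chose the list. Without the 3 CD11b libraries rich in choroid plexus markers the second was -0.20. Among all genes tested, 8.61% were higher without overlap with AAV-A2A in the ACSA-2 fraction, and 10.9% were lower without overlap in the CD11b fraction.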

How the results depend on the processing

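No paired analysis was possible because the groups share no replicate numbers. In the ACSA-2 vector comparison 553 genes were called by edgeR, 1263 by DESeq2, 156 in a fit of all 12 libraries and 272 to 448 without single libraries; 21.5% of the DESeq2 calls were higher with AAV-A2A against 5.24% of the edgeR calls. That comparison chose the list, so the counts of its members past the thresholds are a description only: there were 2 (Nktr and Luc7l3) with DESeq2, with at least 10 counts in every library and with the GC and length trend removed, and 0 to 1 without single libraries: Nktr was not among them without GFP-303, GFP-306, GFP-307 or A2A-310. In the CD11b vector comparison DESeq2 called 455 genes, and 3 were called without the choroid plexus-rich libraries, against 0. Values of uncalled members changed sign there. Clk4 was -0.12 under upper quartile scaling, -0.058 with at least 10 counts in every library, -0.28 with the trend removed and down to -0.10 without single libraries. Clk1 was 0.0028 in the fit of 12 libraries, 0.19 without the choroid plexus-rich libraries and up to 0.15 without single libraries. Without single libraries Rsrp1 ranged from -0.19 to 0.58 and Srsf5 from -0.24 to 0.015. Without the choroid plexus-rich libraries Srsf7 was 0.15, Luc7l3 0.055 and Pnisr 0.11. In the fraction comparison 10055 genes were called, and 4968 with AAV-GFP libraries alone. Pnisr, not called, was 0.0098 with DESeq2, 0.020 with RLE scaling, 0.19 with upper quartile scaling, 0.028 with at least 10 counts in every library, 0.46 with the trend removed, 0.43 with AAV-A2A libraries alone and -0.18 to 0.093 without single libraries. Upper quartile scaling moved the median of all genes from -0.13 to 0.09 there, and from -0.05 to -0.21 in the CD11b vector comparison. The cause of these shifts was not tested. With the longest transcript in place of the union of exons, 2 members changed place in the order of levels in each fraction. Between 2 and 5 members had an r over 0.5 with Nktr without single libraries. Clk1, Srsf5 and Clk2 were called lower in the ACSA-2 fraction under all 22 alternatives run. Their sizes depended on base composition and length. With that trend removed the log2 fold change was -1.82 for Clk1 (from -2.42), -1.38 for Nktr (from -1.93), -1.09 for Srsf5 (from -1.41) and -0.97 for Clk2 (from -1.33). It grew to -0.90 for Srsf2 (from -0.75) and to 1.43 for Luc7l3 (from 0.87). Nktr lay past the thresholds as lower under the alternatives that used both vectors. That is a description, and no test of Nktr is given, since its counts chose the list.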

Other observations

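The cyclophilins, the prolyl isomerase family of Nktr, went both ways between the fractions. Of 15 tested, 7 were called higher in the ACSA-2 fraction, 3 were called lower and 5 were not called, by edgeR, beside 24.6% of all genes higher and 29.4% lower, with a median log2 fold change of 0.49. Ppic, a cyclophilin of the secretory pathway, stood at 24.1 ± 7.7 CPM in the ACSA-2 and 5.82 ± 4.76 CPM in the CD11b fraction (SD, n = 6 each; log2 fold change 2.23), and Ppil3, a spliceosomal cyclophilin, at 36.8 ± 9.8 against 11.9 ± 3.0 CPM (1.64). Ranbp2, a nuclear pore protein with a cyclophilin domain, was lower, at 11.2 ± 2.3 against 35.2 ± 16.2 CPM (-1.60).

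The core spliceosome also went both ways, as did all genes tested, of which 24.6% were called higher and 29.4% lower. Of 28 genes tested, 9 were called higher and 11 lower in the ACSA-2 fraction, with a median of 0.02: Snrpd2 (2.11) and Sf3b6 (2.04) were higher and Sf3b3 (-2.06) lower. Of 24 hnRNP genes 3 were called higher and 11 lower. The polypyrimidine tract-binding proteins took opposite directions, Ptbp1 at 31.9 ± 10.7 against 139 ± 55 CPM (log2 fold change -2.09) and Ptbp2 at 27.0 ± 8.6 against 11.5 ± 1.2 CPM (1.20). Malat1 was the 1 nuclear long noncoding RNA called, and was higher in the ACSA-2 fraction, at 2080 ± 2012 against 623 ± 374 CPM (1.68), with overlapping libraries. The sum of the 6 nuclear long noncoding RNAs was not higher in the ACSA-2 fraction with each vector. With AAV-GFP it was 652 to 1262 CPM in the ACSA-2 and 889 to 1493 CPM in the CD11b libraries. With AAV-A2A it was 1585 to 6232 and 314 to 463 CPM, highest in A2A-310.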
